A study of Mus musculus with 6 samples.

Results

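The genes examined here encode SCF ubiquitin ligases: the F-box substrate receptors of the Fbxl, Fbxo and Fbxw families, together with Skp1a, Cul1, Rbx1, Skp2, Btrc and Ccnf. They were chosen by symbol, and 82 of the 23420 genes in the count table matched (18 Fbxl, 37 Fbxo, 21 Fbxw and the 6 others). Of these, 61 had at least 10 reads in at least 3 libraries and are described below, and all 61 also passed edgeR's filter on low counts. RNA-seq was performed on mesenchymal stromal cells (MSCs) grown out of the femoral bone marrow of female C57BL/6 mice aged 6 to 8 weeks. Of the 6 libraries, 3 carry the label Ctl MSC and 3 the label MSC-TPr. Ctl MSCs had received the empty AP2 retroviral backbone, and MSC-TPr the same backbone carrying the genes for the thymoproteasome subunits β1i (Psmb9), β2i (Psmb10) and β5t (Psmb11). Cells of both labels were transduced at passage 5, with eGFP as the marker of the construct. The labels do not say whether the 3 libraries of a label came from separate animals, cultures or transductions, so each p-value measures only the spread between these libraries.

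An SCF ligase attaches ubiquitin to proteins that are to be degraded. Cul1 is its scaffold, Rbx1 recruits the ubiquitin-conjugating enzyme, and Skp1 holds an interchangeable F-box protein that binds the substrate, in Fbxl proteins through leucine-rich repeats, in Fbxw proteins through WD40 repeats, and in Fbxo proteins through other domains. The ligase works only while Nedd8 is attached to Cul1; the COP9 signalosome removes Nedd8, and Cand1 exchanges the F-box proteins. In dividing cells SCF ligases set the levels of cyclins, CDK inhibitors and replication factors, and elsewhere they act on iron regulators, β-catenin and glycoproteins.

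Each library held 16158756 to 22158887 reads on genes. In CPM, the read count scaled to library size with edgeR's TMM method, a floor of 3 reads lies at 0.139 to 0.181, counting error alone being covered. The 3 genes of the construct did not separate the labels. Psmb10 had 27.8, 8.81 and 8.38 CPM (Ctl MSC 1, 2 and 3) against 8.97, 17.3 and 15.2 CPM (MSC-TPr 1, 2 and 3), and Psmb9 had 3.38, 0.80 and 0.83 CPM against 0.55, 1.24 and 1.21 CPM. For both genes the library labelled Ctl MSC 1 lay above MSC-TPr 2 and 3, and the library labelled MSC-TPr 1 lay near Ctl MSC 2 and 3. Psmb11 had at most 6 reads in a library, with 0.046 to 0.355 CPM in MSC-TPr against 0.110 to 0.214 CPM in Ctl MSC. It separates nothing, and its level did not mark any MSC-TPr library, those numbered 2 and 3 included. Over all genes, too, the libraries numbered 1 lay nearer to libraries 2 and 3 of the other label. The chi-square per gene was 79.63 and 80.35 between Ctl MSC 1 and MSC-TPr 2 and 3, but 172 and 161 between Ctl MSC 1 and Ctl MSC 2 and 3; it was 73.2 and 65.1 between MSC-TPr 1 and Ctl MSC 2 and 3, but 154 and 191 between MSC-TPr 1 and MSC-TPr 2 and 3. Averaged over 22 cell division genes, none of them an SCF gene, the log2 CPM was 6.78 in Ctl MSC 1, 6.68 in MSC-TPr 2 and 6.67 in MSC-TPr 3, against 3.96, 3.98 and 3.97 in Ctl MSC 2, Ctl MSC 3 and MSC-TPr 1. A principal component analysis sums up the spread between libraries on a few axes. Axis 1 (58.5% of the variance) placed Ctl MSC 1 with MSC-TPr 2 and 3, and MSC-TPr 1 with Ctl MSC 2 and 3. Axis 2 (28.3%) split the libraries by label, at -48.9, -20.4 and -19.6 (Ctl MSC 1, 2 and 3) against 49.1, 24.2 and 15.6 (MSC-TPr 1, 2 and 3). The labels of the libraries numbered 1 are thus in doubt. Axis 1 and the chi-square, cell division, Psmb9 and Psmb10 values go against them, and axis 2 goes with them. An exchange of both libraries cannot be told apart from a true difference between replicates. The labels were kept as given, Ctl MSC 1 and MSC-TPr 1 below stand for the libraries so labelled, and an exchange would change fold changes over 6 libraries and could turn their signs. Each direction below is therefore a direction between library labels. It is given over all 6 libraries and, for part of the genes, also over the 4 libraries numbered 2 and 3. A direction given over 6 libraries alone rests on the labels of the libraries numbered 1. These 4 do not rest on the labels of the libraries numbered 1. Their own labels were likewise taken as given, and Psmb11 did not mark them. Within those 4 libraries, label and cell division level cannot be told apart. Among MSC markers, Nt5e (CD73), Cd44 and Pdgfrb were read in every library (Nt5e lower in all 3 MSC-TPr libraries, log2 fold change -2.02, adjusted p = 0.079), whereas Thy1 (CD90), a defining marker, had 1 read in all. Summed levels stayed at or under 1.33 CPM for 7 haematopoietic and macrophage markers, 3.32 CPM for 5 endothelial markers and 12.1 CPM for 4 osteoblast markers, nearly all of it Alpl, while 4 adipocyte markers summed to between 13.2 and 126.5 CPM, nearly all of it Fabp4.

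Promoter sequences are shown for the 6 members called higher in MSC-TPr over the libraries numbered 2 and 3, to show the sequence at the starts of the genes on which the comparison below turns. Each line runs 5′ to 3′ from 250 bases before to 25 bases after the RefSeq start site nearest the annotated main transcript (GRCm38.p6, the build of mm10). Capitals mark 2 short motifs searched on both strands: the CHR element (TTTGAA or TTCGAA), through which cell cycle genes are repressed outside G2 and mitosis, and the CCAAT box (CCAAT), bound by NF-Y. A match on the reverse strand is printed as it reads on the strand shown, and the motifs do not overlap. The windows are chr17:24251385-24251659 (minus strand) for Ccnf, chr10:5805441-5805715 (minus) for Fbxo5, chr11:16951160-16951434 (plus) for Fbxo48, chr7:28716540-28716814 (plus) for Fbxo17, chr15:9140430-9140704 (minus) for Skp2 and chr4:148160418-148160692 (plus) for Fbxo2.
Ccnf: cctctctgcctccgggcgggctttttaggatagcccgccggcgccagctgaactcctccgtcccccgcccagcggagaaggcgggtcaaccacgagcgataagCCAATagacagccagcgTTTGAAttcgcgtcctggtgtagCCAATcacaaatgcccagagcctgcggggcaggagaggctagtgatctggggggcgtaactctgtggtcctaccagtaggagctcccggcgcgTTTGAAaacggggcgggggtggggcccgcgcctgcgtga
Fbxo5: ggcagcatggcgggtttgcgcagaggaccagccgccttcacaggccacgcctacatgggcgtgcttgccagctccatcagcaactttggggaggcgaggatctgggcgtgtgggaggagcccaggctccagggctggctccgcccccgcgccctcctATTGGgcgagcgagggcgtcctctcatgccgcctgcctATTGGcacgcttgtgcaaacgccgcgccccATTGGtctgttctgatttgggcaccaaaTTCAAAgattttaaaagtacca
Fbxo48: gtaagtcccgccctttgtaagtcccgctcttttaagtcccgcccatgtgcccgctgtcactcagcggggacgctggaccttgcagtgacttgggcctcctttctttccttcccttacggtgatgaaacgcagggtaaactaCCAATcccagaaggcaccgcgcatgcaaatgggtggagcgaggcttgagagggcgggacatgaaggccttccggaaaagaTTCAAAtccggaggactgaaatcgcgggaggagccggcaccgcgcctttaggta
Fbxo17: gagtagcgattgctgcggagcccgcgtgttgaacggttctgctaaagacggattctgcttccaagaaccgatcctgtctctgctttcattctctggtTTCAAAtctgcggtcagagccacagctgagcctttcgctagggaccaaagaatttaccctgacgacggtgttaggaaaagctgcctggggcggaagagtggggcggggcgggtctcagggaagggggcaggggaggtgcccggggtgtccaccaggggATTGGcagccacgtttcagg
Skp2: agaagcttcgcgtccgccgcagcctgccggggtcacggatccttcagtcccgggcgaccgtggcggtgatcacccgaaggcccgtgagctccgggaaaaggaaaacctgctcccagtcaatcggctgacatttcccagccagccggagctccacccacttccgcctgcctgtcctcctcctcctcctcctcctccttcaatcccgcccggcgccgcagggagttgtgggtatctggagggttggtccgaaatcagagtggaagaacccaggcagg
Fbxo2: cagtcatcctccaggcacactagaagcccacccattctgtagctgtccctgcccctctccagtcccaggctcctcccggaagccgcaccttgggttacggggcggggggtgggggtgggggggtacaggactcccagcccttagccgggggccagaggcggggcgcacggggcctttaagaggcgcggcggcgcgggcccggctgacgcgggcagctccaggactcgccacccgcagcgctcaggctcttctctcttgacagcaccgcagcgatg
The Ccnf window held CHR letters at -130 and -14 from the start site and CCAAT letters at -147 and -107, and the Fbxo5 window CHR letters at 4 and CCAAT letters at -93, -55 and -25. Among the 48 tested members with a RefSeq window, 11 (22.9%) held a CHR match, 13 (27.1%) a CCAAT match and 4 (8.33%) both. The corresponding shares of all 32851 RefSeq windows were 18.2%, 35.8% and 6.78%. The 4 members with both motifs were Ccnf, Fbxo5, Fbxo48 and Fbxo17, a combination looked at after their levels were known. The Fbxo48 window held CHR letters at -29 and CCAAT letters at -109, and the Fbxo17 window CHR letters at -153 and CCAAT letters at 6. The Skp2 and Fbxo2 windows held neither, but Skp2 has another RefSeq start on chromosome 15 at 9155425, whose window held 2 CHR matches and 1 CCAAT match. Further starts were searched only for the members shown, so this window is outside the counts above and has no background beside it. A match in these letters describes the sequence and does not show that a factor was bound.

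Which subunits and receptors were made at all, and at what level, can be read from RPKM, the reads of a gene scaled to its exon length and to library size. Skp1a, the adaptor, had the highest level with a mean RPKM of 116 over the 6 libraries, followed by the scaffold Cul1 with 46.9. The RING subunit Rbx1 had 19.8 when divided by all of its annotated exons and 53.8 when divided by its main transcript, so its place among the subunits rests on the length used. Among the receptors Fbxw11 (β-TrCP2, a receptor for phosphorylated IκBα and β-catenin) led with 43.8. It was followed by Fbxo11, a receptor of BCL6, with 28.7, Fbxw8, which works with Cul7, with 23.5, and Fbxo22, a receptor of the histone demethylase KDM4A, with 20.0. These 4 genes held 27.6% of the summed level of all 58 receptors. This order, too, rests on the length used: divided by main transcripts, Fbxw11 still led with 47.1, but Fbxw2 came next with 36.8 (7.87 by all exons), followed by Fbxo11 with 33.6 and Fbxw8 with 25.98, and those 4 held 25% of the sum. That sum was between 7.26 and 10.6 times the level of Cul1, and between 7.71 and 11.3 times when main transcripts were used, being lowest in MSC-TPr 2 with either length. Exons of Fbxw8 share 1845 bases with Gm9754 on the opposite strand, and those of Fbxo22 share 368 with Nrg4. Reads of each pair may not have been told apart, and not every such overlap is listed here. RPKM was under 1 for 6 of the tested members, the lowest being Fbxl22 and Fbxw10 with 0.146 and 0.154.

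**Figure D1:**
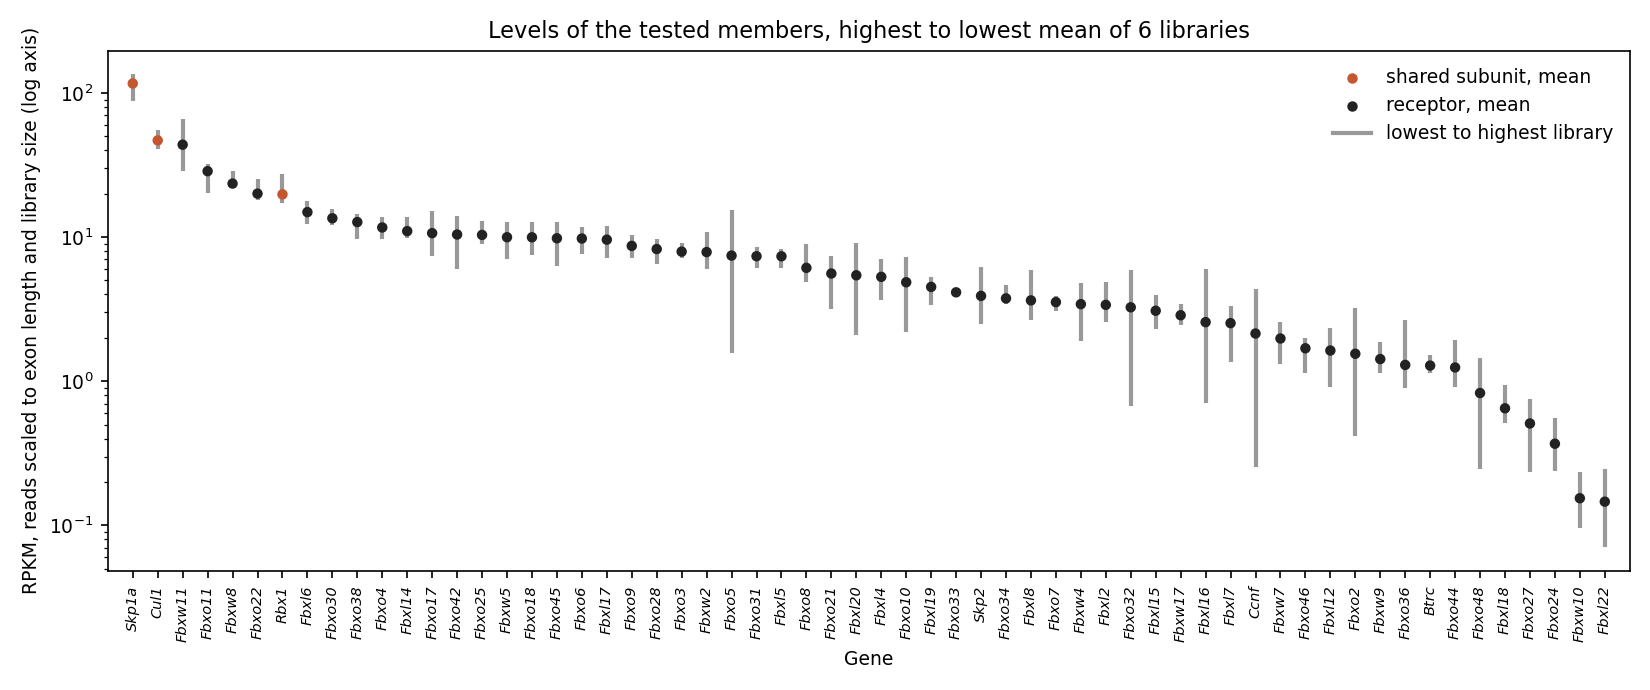
Mean level of 60 of the tested members in RPKM (log axis), with the lowest and highest of the 6 libraries as a line. Skp1a, Cul1 and Rbx1 are in orange and the receptors in black: most lines are short, whereas Ccnf, Fbxo5, Fbxo32, Fbxo2 and Fbxl16 span more than 7-fold.

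The 21 members under the limit were 2 Fbxl, 7 Fbxo and 12 Fbxw genes, with 199 reads in all 6 libraries together and no more than 13 in any of them. All 12 Fbxw genes lie together on chromosome 9 between 109139447 and 109746089 (mm10). They had 45 reads in total, 5 of them had none, and reads of such close copies may be split among them. Fbxo40, a muscle receptor of IRS1, was also among the 21.

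How far each gene ranged over the 6 libraries is given here as a description. The highest library exceeded the lowest by a median of 1.79-fold for the 61 members and 1.93-fold for 11917 tested genes with reads in every library. The highest exceeded the lowest by over 4-fold in 7 members (11.5%), against 15.7% of those genes. These 7 were Ccnf, Fbxo5, Fbxo32, Fbxl16, Fbxo2, Fbxo48 and Fbxl20. For 19 members the difference stayed under 1.5-fold.

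**Figure D2:**
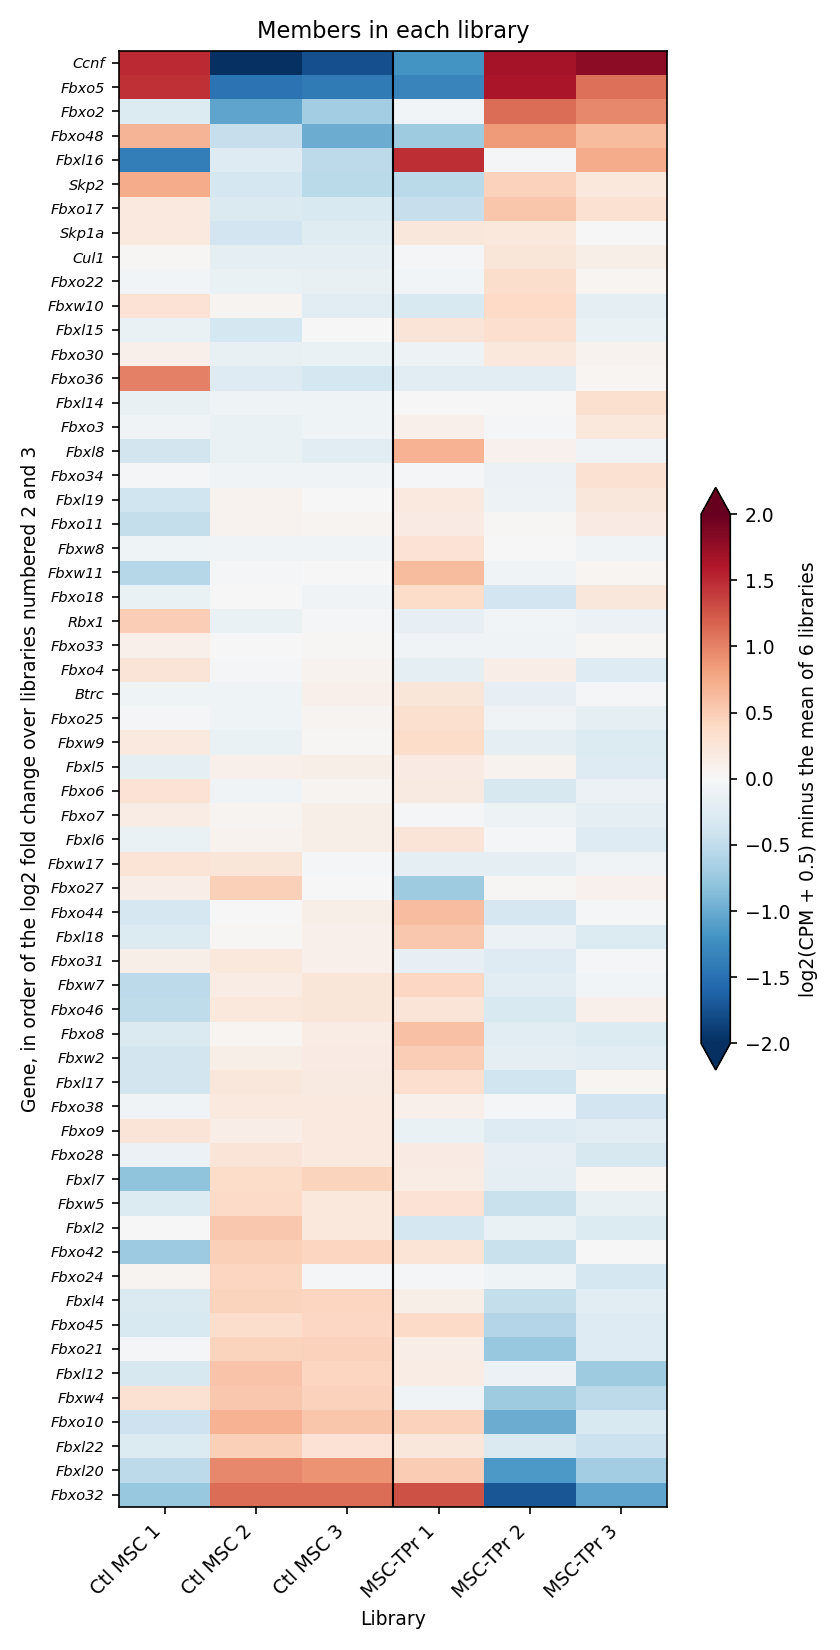
Log2(CPM + 0.5) of 60 of the tested members (rows) in each library (columns), minus the gene's mean over the 6 libraries, with red above and blue below that mean. Ctl MSC 1 has the colours of MSC-TPr 2 and 3 for Ccnf, Fbxo5 and Fbxo48 at the top and Fbxl20 and Fbxo32 at the bottom, and MSC-TPr 1 has those of Ctl MSC 2 and 3.

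Over all 6 libraries no member was called by edgeR's quasi-likelihood test at an adjusted p under 0.05 with a log2 fold change of at least 0.5, the lowest adjusted p being 0.186, beside 51 of 11974 genes (0.426%). At an unadjusted p under 0.05 there were 5 members (8.2%) beside 15.0% of all genes tested: Fbxo2 and Fbxl16 higher in MSC-TPr, and Fbxw4, Fbxo9 and Fbxl2 lower. DESeq2 called 3 of the 64 members it tested (4.69%) beside 5.31% of its genes, namely Fbxw4, Fbxo2 and Fbxl16. The label groups did not overlap in 12 members (19.7%), 6 in each direction, beside 22.6% of all genes tested. None of these shares stood above its background. The median log2 fold change of MSC-TPr over Ctl MSC was -0.01 for the 61 members and 0.01 for all genes tested.

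Over the libraries numbered 2 and 3 the picture changed: 18 of 61 members (29.5%) were called, 6 higher and 12 lower, beside 4854 of 12122 genes (40.0%). The median log2 fold change was then -0.19 for the members and 0.002 for all genes tested. Calls over these 4 libraries rest on a small spread within each label, smallest between Ctl MSC 2 and 3 (chi-square per gene 4.761). The number of calls may therefore be too high. Between the libraries numbered 1, only 3 of these 18 (16.7%) differed in the same direction, Fbxo2, Fbxw4 and Fbxl2, as did 29.8% of the 4854 genes. The other 15 members called over 4 libraries thus pointed the opposite way between MSC-TPr 1 and Ctl MSC 1. With the cell division level as a covariate over 6 libraries, 4 members (6.56%) were called beside 12.1% of all genes: Fbxw4, Fbxo2, Fbxl16 and Fbxw11. In that fit the label difference rests on the libraries numbered 1. Ctl MSC 1 is the only Ctl MSC library with a high cell division level, and MSC-TPr 1 the only MSC-TPr library with a low one. The doubt about their labels therefore holds for every covariate value given here.

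**Figure D3:**
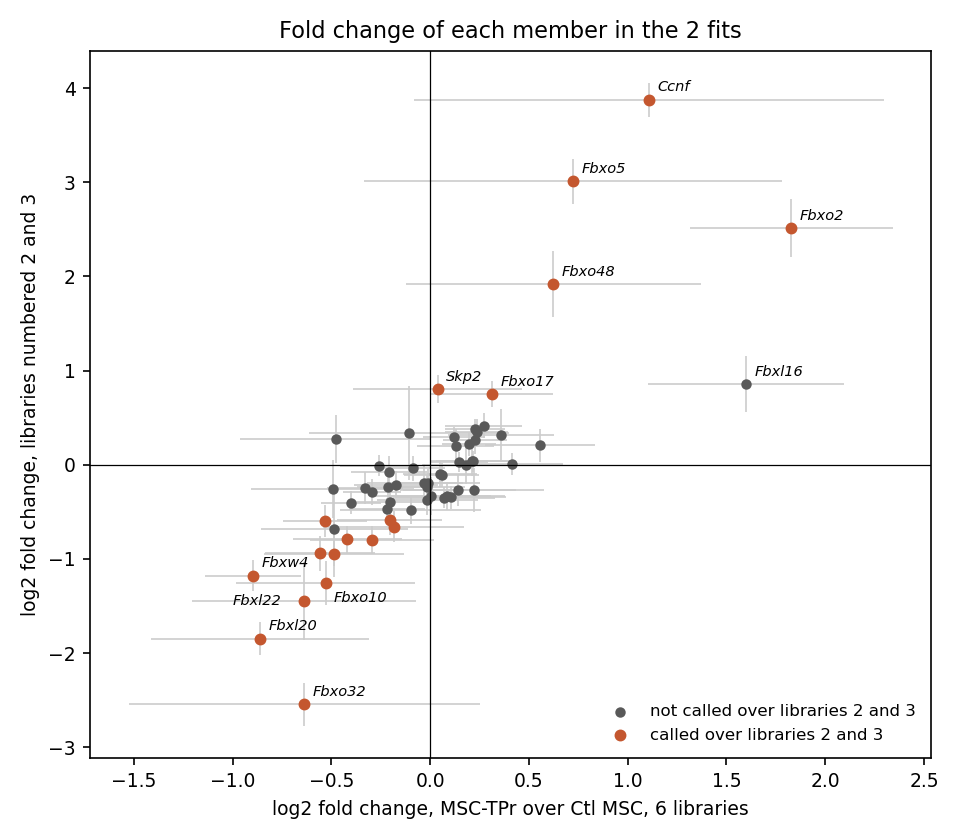
Log2 fold change of MSC-TPr over Ctl MSC for 60 of the members over 6 libraries (horizontal) and over the libraries numbered 2 and 3 (vertical), with standard errors as lines; the 2 fits share 4 libraries. The 18 members called over libraries 2 and 3 are in orange; Ccnf, at 3.88 on the vertical axis, has a standard error of 1.19 on the horizontal one.

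None of the shared subunits was called between the labels. Values are given in the order of the replicate numbers. Skp1a had 289, 196 and 214 CPM (Ctl MSC) against 297, 293 and 254 CPM (MSC-TPr). Ctl MSC 2 and 3 were the low libraries and the labels overlapped (log2 fold change 0.27 ± 0.19 (SE), adjusted p = 0.556). Cul1 had 192, 165 and 166 CPM (Ctl MSC) against 184, 224 and 205 CPM (MSC-TPr), again with Ctl MSC 1 inside the MSC-TPr range (0.23 ± 0.15, adjusted p = 0.523). Rbx1 was read at 126, 80.9 and 87.8 CPM under the Ctl MSC label and at 78.9, 85.4 and 81.9 CPM under MSC-TPr. Here Ctl MSC 1 was the high library, and the other 5 lay between 78.9 and 87.8 CPM (log2 fold change -0.26 ± 0.20, adjusted p = 0.593). Over libraries 2 and 3, Skp1a was higher by 0.42 (adjusted p = 0.0423) and Cul1 by 0.37 (adjusted p = 0.0394) on the log2 scale, both under the fold required for a call, and Rbx1 differed by -0.01 (adjusted p = 0.956).

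Among the 11 receptors of cell cycle regulators, Ccnf and Fbxo5 ranged most widely over the libraries, by 17.1-fold and 9.80-fold, whereas the highest library exceeded the lowest by 1.27-fold to 2.58-fold in the other 9. Ccnf (ENSMUSG00000072082, chromosome 17 of mm10, as for all coordinates here, 24222198 to 24251484, minus strand) encodes cyclin F, an F-box protein that marks the ribonucleotide reductase subunit RRM2 and the centriole protein CP110 for degradation in G2. It had 27.4, 1.98 and 2.43 CPM in Ctl MSC, compared with 3.82, 30.8 and 33.9 CPM in MSC-TPr. Ctl MSC 1 and MSC-TPr 2 and 3 were high, the other 3 libraries stayed under 4 CPM, and the labels overlapped. The log2 fold change was 1.11 ± 1.19 over 6 libraries (adjusted p = 0.714), 3.88 ± 0.18 over libraries 2 and 3 (adjusted p = 0.000112) and 0.53 ± 0.17 with the cell division covariate (adjusted p = 0.0819).

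Fbxo5 (ENSMUSG00000019773, chromosome 10, 5799160 to 5805600, minus strand) encodes Emi1, which holds the anaphase-promoting complex inactive through S and G2. Fbxo5 is counted among the receptors here by its symbol only. Its levels were 27.3, 3.15 and 3.31 CPM (Ctl MSC) against 3.54, 30.9 and 21.2 CPM (MSC-TPr). The same 3 libraries as for Ccnf were high, without a value in between. Fbxo5 was called over libraries 2 and 3 (log2 fold change 3.01 ± 0.24, adjusted p = 0.000443) and not over all 6 (0.72 ± 1.06, adjusted p = 0.801). With the covariate its log2 fold change was 0.08 (adjusted p = 0.822). Because Ccnf and Fbxo5 were high in the same libraries as the cell division genes, smaller values with this covariate were fixed in advance. The same caution holds for Skp2 and Fbxo32 below.

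Skp2 (ENSMUSG00000054115, chromosome 15, 9111985 to 9155425, minus strand), the receptor that removes the CDK inhibitor p27 together with Cks1, ranged less widely. It had 48.9, 22.6 and 19.7 CPM (Ctl MSC) against 19.7, 40.2 and 33.7 CPM (MSC-TPr). Ctl MSC 1 had the highest value of all, and MSC-TPr 1 lay with Ctl MSC 2 and 3. Its log2 fold change was 0.04 ± 0.43 over 6 libraries (adjusted p = 0.977), 0.81 ± 0.15 over libraries 2 and 3 (adjusted p = 0.00745) and -0.24 when the covariate was added over 6 (adjusted p = 0.283).

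The remaining 8 receptors of this group are Fbxw11 and Btrc (both β-TrCP), Fbxw7 (cyclin E, Myc), Fbxo4 and Fbxo31 (cyclin D1), Fbxl12 (the CDK inhibitor p57), Fbxo7 (a mitophagy factor that also binds Cdk6) and Fbxo18 (the helicase Fbh1). Fbxw11 was read at 124, 179 and 184 CPM under the Ctl MSC label and at 286, 175 and 189 CPM under MSC-TPr. MSC-TPr 1 was the high library and Ctl MSC 1 the low one, with the other 4 between 174.8 and 188.9 CPM. It accordingly differed by 0.42 ± 0.26 over 6 libraries (adjusted p = 0.498), by 0.01 over libraries 2 and 3 (adjusted p = 0.968), and by 0.59 with the covariate (adjusted p = 0.0175). Btrc kept between 19.3 and 25.7 CPM throughout. Fbxw7 had 9.30, 15.1 and 16.2 CPM in Ctl MSC, compared with 18.3, 11.8 and 13.0 CPM in MSC-TPr, overlapping by label. Its log2 fold change was 0.09 ± 0.29 over 6 libraries (adjusted p = 0.915) and -0.33 over libraries 2 and 3 (adjusted p = 0.112). Fbxl12 had 6.28, 12.0 and 10.9 CPM (Ctl MSC) against 8.86, 7.28 and 4.64 CPM (MSC-TPr), and was called only over libraries 2 and 3 (log2 fold change -0.95, adjusted p = 0.0231). Exons of Fbxl12 share 1890 bases with those of Ubl5 on the opposite strand, and the strand setting of the counting is not given in the sources used here, so reads of the pair may not have been told apart. Fbxo31 was read at 43.8, 46.6 and 43.1 CPM under the Ctl MSC label and at 35.7, 33.5 and 39.7 CPM under MSC-TPr; it was lower in every MSC-TPr library but by only -0.29 ± 0.15 (adjusted p = 0.399). Fbxo7 was likewise lower in every MSC-TPr library (19.0 to 21.5 against 22.7 to 24.1 CPM, log2 fold change -0.21, adjusted p = 0.576). Its exons share 314 bases with A230060F14Rik on the opposite strand. Fbxo4 and Fbxo18 overlapped by label, with log2 fold changes of -0.21 and 0.18. Of the 11 receptors in the group, 4 (36.4%, beside 40.0% of all genes) were called over libraries 2 and 3, Ccnf, Fbxo5 and Skp2 higher and Fbxl12 lower, and 0 over all 6.

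**Figure D4:**
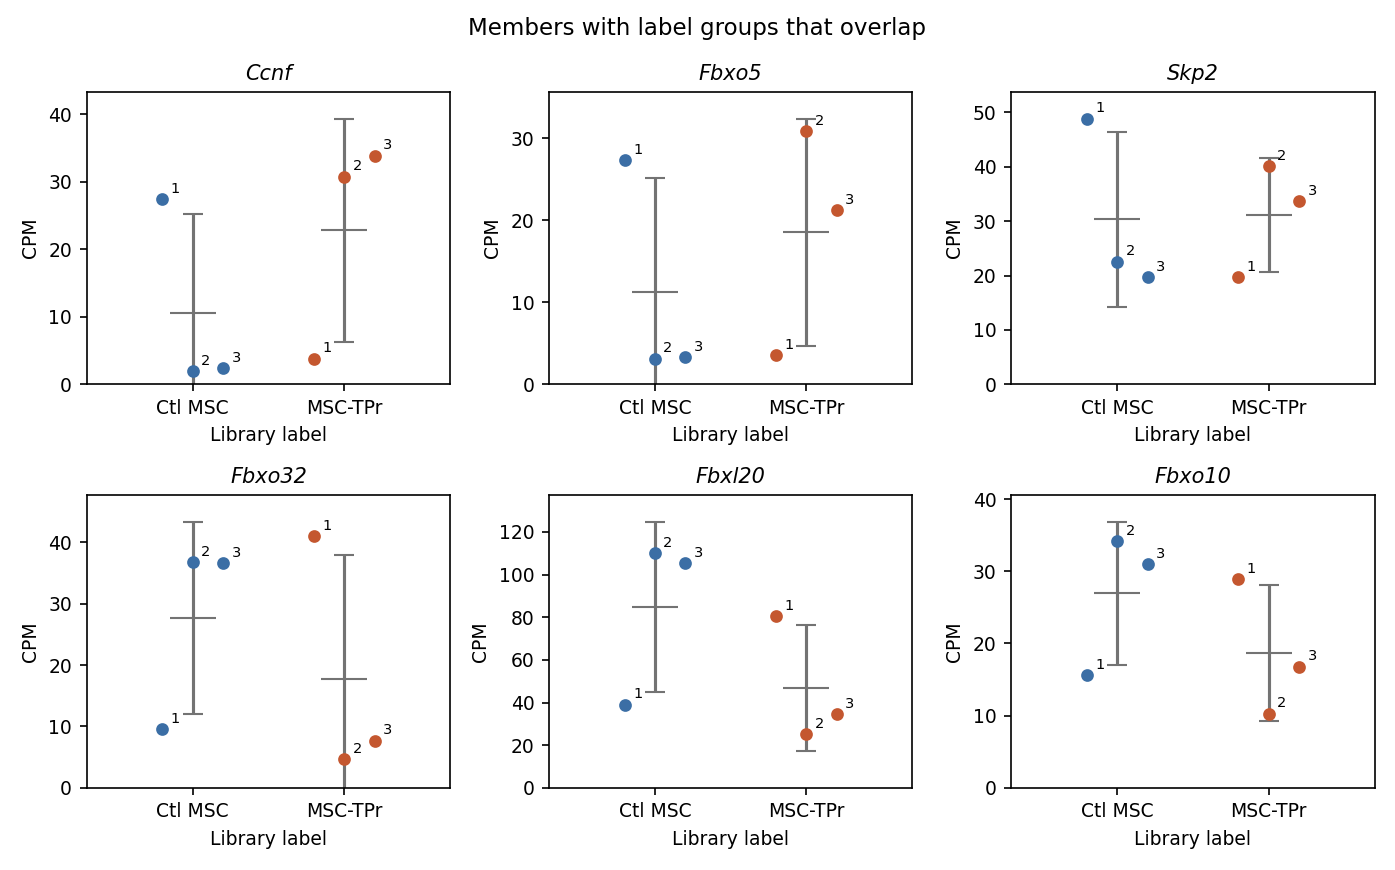
CPM of 6 members whose label groups overlap, in each Ctl MSC (blue) and MSC-TPr (orange) library, numbered; grey bars are the mean ± SD of 3 libraries, cut off at 0. For Ccnf, Fbxo5 and Skp2, Ctl MSC 1 lies with MSC-TPr 2 and 3 at the top, and for Fbxo32, Fbxl20 and Fbxo10 it lies with them at the bottom.

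Other members were low in the libraries where Ccnf and Fbxo5 were high. Fbxo32 (ENSMUSG00000022358, chromosome 15, 58175879 to 58214932, minus strand) encodes atrogin-1, known from wasting muscle and as a FOXO target; its exons share 186 bases with Gm15943 on the opposite strand. It had 9.61, 36.8 and 36.6 CPM in Ctl MSC, compared with 41.0, 4.73 and 7.70 CPM in MSC-TPr. Ctl MSC 1 and MSC-TPr 2 and 3 were the low libraries, all under 10 CPM. Its log2 fold change was -0.64 ± 0.89 over 6 libraries (adjusted p = 0.788), -2.54 ± 0.23 over libraries 2 and 3 (adjusted p = 0.000685) and -0.23 with the covariate (adjusted p = 0.544). Fbxl20, known as Scrapper at synapses, had 39.0, 110.2 and 105 CPM (Ctl MSC) against 80.4, 25.2 and 34.5 CPM (MSC-TPr). The same 3 libraries were low, and over libraries 2 and 3 it was called (-1.85 ± 0.17, adjusted p = 0.000772) but not over 6 (-0.86 ± 0.55, adjusted p = 0.514). On the same strand, 674 of its exon bases also belong to Gm11632. Fbxo10, a receptor of BCL2, was read at 15.7, 34.1 and 31.0 CPM under the Ctl MSC label and at 29.0, 10.3 and 16.8 CPM under MSC-TPr. It followed the same order, with -1.25 over libraries 2 and 3 (adjusted p = 0.00782) and -0.53 over 6 (adjusted p = 0.632).

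Smaller differences of this kind were called over libraries 2 and 3 for Fbxo21 (-0.94), Fbxo45 (-0.80; a partner of the ligase Mycbp2 rather than Cul1), Fbxl4 (-0.79; a mitochondrial protein that restrains mitophagy), Fbxo42 (-0.66) and Fbxw5 (-0.59; a receptor of the actin regulator Eps8 and the centriole protein Sas6), each on the log2 scale. Fbxl22, a sarcomere-associated receptor, was also called (-1.45, adjusted p = 0.0323), on 6 to 18 reads per library, and its exons share 317 bases with Herc1 on the opposite strand. In the other direction Fbxo48 had 2.84, 1.01 and 0.55 CPM in Ctl MSC, compared with 0.78, 3.25 and 2.74 CPM in MSC-TPr. Its high and low libraries were those of Ccnf (log2 fold change 1.92 ± 0.35 over libraries 2 and 3, adjusted p = 0.00691; 0.62 ± 0.75 over 6, adjusted p = 0.747). Whether the cell division level of the libraries plays a part in these differences was not tested. None of the members in this paragraph was called over 6 libraries, either with or without the covariate.

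In other members every library followed its label, taking the labels of the libraries numbered 1 as given. Fbxw4 (ENSMUSG00000040913, chromosome 19, 45578254 to 45660312, minus strand), also called dactylin and linked to limb malformation, had 12.8, 15.2 and 14.3 CPM (Ctl MSC) against 9.69, 6.03 and 6.96 CPM (MSC-TPr). Every MSC-TPr library lay below every Ctl MSC library, MSC-TPr 1 coming nearest. The log2 fold change was -0.90 ± 0.24 over 6 libraries (unadjusted p = 0.00876, adjusted p = 0.186), -1.18 ± 0.16 over libraries 2 and 3 (adjusted p = 0.00291) and -0.79 with the covariate (adjusted p = 0.0265). DESeq2 gave an adjusted p of 0.0363. Exons of Fbxw4 share 676 bases with Gm17018 on the opposite strand.

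Fbxo2 (ENSMUSG00000041556, chromosome 4, 148160621 to 148166424, plus strand) encodes a receptor of high-mannose glycoproteins drawn out of the endoplasmic reticulum, best known from neurons. It was read at 1.27, 0.53 and 0.83 CPM under the Ctl MSC label and at 1.55, 4.14 and 3.67 CPM under MSC-TPr, on 10 to 79 reads per library. The labels did not overlap, although Ctl MSC 1 and MSC-TPr 1 lay close together. Fbxo2 had the largest log2 fold change of the tested members over 6 libraries, 1.83 ± 0.51 (unadjusted p = 0.0102, adjusted p = 0.195), with 2.51 ± 0.31 over libraries 2 and 3 (adjusted p = 0.00186) and 1.44 with the covariate (adjusted p = 0.0254).

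Fbxl16 (ENSMUSG00000025738, chromosome 17, 25809085 to 25821255, plus strand), a leucine-rich repeat member, had 2.54, 6.14 and 5.02 CPM in Ctl MSC, compared with 21.5, 7.28 and 12.8 CPM in MSC-TPr. Here the libraries numbered 1 were the extremes of both labels, and MSC-TPr 2 lay close to Ctl MSC 2. Over 6 libraries the log2 fold change was 1.60 ± 0.50 (unadjusted p = 0.0157, adjusted p = 0.222). It was 0.86 ± 0.30 over libraries 2 and 3 (adjusted p = 0.0597) and 1.95 with the covariate (adjusted p = 0.00468).

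Fbxo9, a receptor of the Tel2 and Tti1 proteins that stabilise mTOR, had 32.1, 29.3 and 30.7 CPM (Ctl MSC) against 24.4, 22.4 and 22.9 CPM (MSC-TPr). The libraries of each label lay close together and apart from the other label, and its log2 fold change was -0.40 in both fits (over 6, unadjusted p = 0.0349 and adjusted p = 0.289; over libraries 2 and 3, adjusted p = 0.0356, under the fold required). Fbxl2, a lipid-anchored receptor, was read at 14.7, 21.6 and 17.0 CPM under the Ctl MSC label and at 11.5, 13.4 and 12.1 CPM under MSC-TPr. It was lower in every MSC-TPr library (-0.53 ± 0.21, unadjusted p = 0.0431, adjusted p = 0.314) and was called over libraries 2 and 3 (-0.60, adjusted p = 0.0317). Its exons share 496 bases with Ubp1 on the opposite strand. Among the other members without overlap, Fbxl8 was the highest by fold, with 5.62, 6.68 and 6.29 CPM (Ctl MSC) against 12.3, 7.93 and 7.05 CPM (MSC-TPr). MSC-TPr 1 was its high library (0.55 over 6 libraries, 0.21 over libraries 2 and 3, adjusted p = 0.406 and 0.365). Fbxl14, a receptor of Snail1, Fbxo22 and Fbxo3 were higher in every MSC-TPr library by 0.20 to 0.24 on the log2 scale, and Fbxw17 was lower in every MSC-TPr library by -0.33; their adjusted p-values ran from 0.476 to 0.553.

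**Figure D5:**
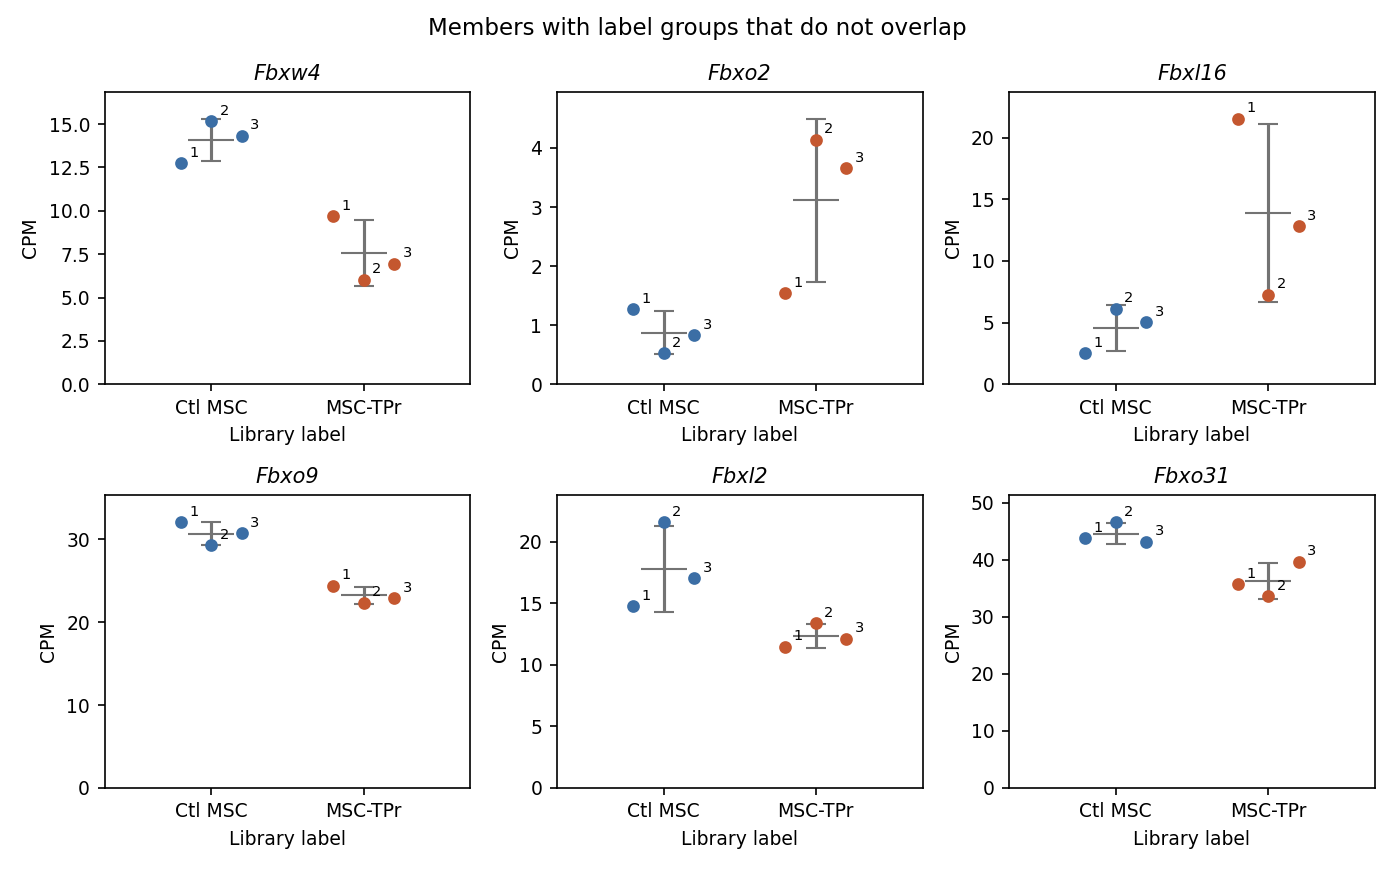
CPM of 6 members whose label groups do not overlap, in each Ctl MSC (blue) and MSC-TPr (orange) library, numbered; grey bars are the mean ± SD of 3 libraries. Fbxw4, Fbxo9, Fbxl2 and Fbxo31 are lower and Fbxo2 and Fbxl16 higher in all 3 MSC-TPr libraries, and none was called over 6 libraries.

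The sugar-binding receptors are Fbxo2, Fbxo6, Fbxo17, Fbxo27 and Fbxo44, which recognise N-glycans or share the domain that does. On chromosome 4 Fbxo6, Fbxo44 and Fbxo2 are neighbours: 659 bases separate Fbxo6 from Fbxo44, and 138 bases lie between Fbxo44 and Fbxo2, which are transcribed away from each other. The levels of this pair did not run together. Fbxo44 had 2.78, 3.63 and 4.03 CPM in Ctl MSC, compared with 5.87, 2.78 and 3.53 CPM in MSC-TPr. MSC-TPr 1 was its high library, whereas Fbxo2 was highest in MSC-TPr 2. The log2 fold change of Fbxo44 was 0.22 ± 0.36 over 6 libraries (adjusted p = 0.818) and -0.27 over libraries 2 and 3 (adjusted p = 0.369). Fbxo6 had 26.1, 20.4 and 22.1 CPM (Ctl MSC) against 24.4, 16.9 and 19.6 CPM (MSC-TPr), and was the most even of the 5 (-0.17 ± 0.21, adjusted p = 0.753). Fbxo27 lies 17465 bases from Fbxo17 on chromosome 7. Fbxo17 was read at 29.6, 20.9 and 20.6 CPM under the Ctl MSC label and at 18.6, 37.9 and 32.0 CPM under MSC-TPr, whereas Fbxo27 had 0.72 to 2.30 CPM. Ctl MSC 1 and MSC-TPr 2 and 3 were the high libraries for Fbxo17, as for Skp2, and it was called over libraries 2 and 3 (0.75 ± 0.14, adjusted p = 0.00717) but not over 6 (0.31 ± 0.31, adjusted p = 0.685). In this group 2 of 5 members were called over libraries 2 and 3, Fbxo2 and Fbxo17, both higher, a share equal to the 40.0% of all genes.

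Fbxl5, which senses iron and removes IRP2, varied little. It had 62.3, 76.5 and 76.9 CPM (Ctl MSC) against 80.2, 74.9 and 59.2 CPM (MSC-TPr). The labels overlapped, and the log2 fold change over 6 libraries was -0.01 ± 0.18 (adjusted p = 0.987).

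The other 19 tested members, among them Fbxl6, Fbxl17, Fbxo25, Fbxo30 and Fbxo38, showed no difference between the labels at an unadjusted p under 0.05 over 6 libraries. Their log2 fold changes ran from -0.48 (Fbxo24) to 0.36 (Fbxl15), and 0 of them were called over libraries 2 and 3. Fbxo33 was the steadiest of all members, between 17.5 and 19.8 CPM in the 6 libraries. Fbxo36 had 5.74 CPM in Ctl MSC 1 and between 1.93 and 2.69 CPM in the other 5 libraries, so that 1 library set its fold change of -0.48, which was 0.27 over libraries 2 and 3 (adjusted p = 0.413). Fbxl7, Fbxo28 and Fbxw2 had adjusted p-values under 0.05 over libraries 2 and 3 with log2 fold changes between -0.49 and -0.35, under the size required for a call.

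The partners of the ligase were read from lists of other genes. Of 21 neddylation genes and SCF cofactors, 0 were called over 6 libraries, 2 (9.52%, beside 15.0% of all genes) were higher and 0 lower at an unadjusted p under 0.05, and 5 (23.8%, beside 22.6%) were higher and 0 lower in every MSC-TPr library. Nae1, a subunit of the Nedd8-activating enzyme, was read at 67.1, 68.7 and 68.6 CPM under the Ctl MSC label and at 104, 99.8 and 82.3 CPM under MSC-TPr. It was higher by 0.49 ± 0.15 on the log2 scale (unadjusted p = 0.0142, adjusted p = 0.216). Ube2m, which transfers Nedd8 to Cul1, had 98.0, 79.9 and 82.3 CPM in Ctl MSC, compared with 119, 127 and 115 CPM in MSC-TPr, a difference of 0.48 ± 0.15 (unadjusted p = 0.0149, adjusted p = 0.22). Neither gene overlapped by label. Nae1 differed by 0.41 over libraries 2 and 3 (adjusted p = 0.0478, under the fold required for a call), and Ube2m by 0.58 (adjusted p = 0.00929). Over libraries 2 and 3 the list had 5 genes called higher and 1 lower (28.6%, beside 40.0% of all genes), and its median log2 fold change was 0.12, beside 0.14 over 6 libraries.

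Of the 9 COP9 signalosome genes, none passed an unadjusted p under 0.05 over 6 libraries with edgeR, and 3 (33.3%, beside 40.0% of all genes) were called higher over libraries 2 and 3; the list's median log2 fold change was 0.30 in both fits. Of the 7 other cullin scaffolds, Cul9 was lower, with 6.34, 14.6 and 13.1 CPM (Ctl MSC) against 3.65, 1.12 and 1.11 CPM (MSC-TPr). Over libraries 2 and 3 it was called lower (-3.62, adjusted p = 0.000156). Its labels did not overlap, and its difference, -2.53 ± 0.59 over 6 libraries (unadjusted p = 0.00428, adjusted p = 0.149; DESeq2 adjusted p = 0.0012), exceeded that of any SCF member. Of 20 substrates of SCF receptors, mostly of Skp2, Fbxw7, β-TrCP and cyclin F, 1 (5.0%, beside 15.0% of all genes) was lower at an unadjusted p under 0.05 and none higher. It was Cdkn1c (p57), with 0.91, 1.71 and 1.16 CPM (Ctl MSC) against 0.55, 0.12 and 0.37 CPM (MSC-TPr) (-1.83 ± 0.57, unadjusted p = 0.0168, adjusted p = 0.227). Over libraries 2 and 3 Cdkn1c was called lower (-2.445, adjusted p = 0.0124). All 6 values of Cdkn1c stem from 88 reads in total. SCF ligases act on the substrate protein, so these mRNA levels do not measure ligase activity. Over libraries 2 and 3, 5 substrates were called higher and 3 lower, a share equal to the 40.0% of all genes, whereas 20 of the 22 cell division genes (90.9%) were called higher and none lower. Since these are bulk libraries, fewer cells of a kind and less RNA per cell cannot be told apart for any gene above.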

How the data were processed

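The 6 RNA-seq libraries, 3 per label, were analysed with groups and replicate numbers taken from the sample labels. Polyadenylated RNA was prepared with a stranded kit. The authors aligned reads to mm10 (CASAVA 1.8.2, Trimmomatic 0.35 and TopHat2 2.1.0 are listed in the submitters' processing notes), ran HTSeq-count, and deposited its raw counts; the counter's strand setting and annotation are not given in the sources used here. HTSeq's summary lines (13.8% to 20.8% of listed reads) were left out.

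Counts were tested in R 4.3.3 with edgeR 4.0.16 (TMM, filterByExpr, quasi-likelihood test, Benjamini-Hochberg adjustment over all genes tested); calls needed adjusted p < 0.05 together with 0.5 or more of log2 fold change in size. The standard error is the fold change divided by the square root of F, and describes the test. On simulated counts, 200 genes well above the floor were changed by much more than a call requires. The fit over 6 libraries recovered 179 of them at a dispersion of 0.12, near that found (0.124), and made 11 false calls. Smaller changes were not simulated, and the simulated spread was independent between libraries, without a split by cell division level. The simulation thus does not show that smaller changes in members would have been called. Alternatives were DESeq2 1.42.0, RLE scaling, other filters, the replicate number as a block, a further term for the average log2 CPM of 22 cell division genes, the libraries numbered 2 and 3 alone, and each library left out. Same-numbered libraries deviated in opposite directions (correlations of -0.765, -0.594 and -0.604), so the numbers were not taken to pair them.

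Symbols were matched to GENCODE M21 (GRCm38; 21785 directly, 1277 by an older symbol, 358 not) for coordinates and exon lengths. RefSeq promoter windows (GRCm38.p6) were found for 63 of the 82 genes. Genes named are the 6 non-family members, those of the cell cycle, sugar-binding, and iron and muscle lists, those with an unadjusted p under 0.05, up to 5 per direction with the largest fold among non-overlapping members and among those called over libraries 2 and 3, the 5 highest per kb, and up to 2 per direction from the other lists. Members named outside this rule, and Nt5e, Cd44, Thy1, Alpl and Pdgfrb as marker checks, were chosen after their values were seen. The genes and lists were chosen with earlier results of these data known. Of the 61 members, 1 is counted but not reported here, and figures leave it out.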

Additional observations from a re-analysis of the deposited data

How the results depend on the processing

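Over all 6 libraries the absence of calls among the 61 members held under RLE scaling, without a filter, with 10 counts in 3 libraries, with the replicate block and with each library left out. It ended over libraries 2 and 3 (18 members called), with the cell division covariate (4) and with DESeq2 (3). Over all genes, 51 calls became 4854, 1451 and 683 under these settings, 0 with the replicate block, and 0 to 108 with each library left out. The 108 came without Ctl MSC 1, and at most 1 gene was called without Ctl MSC 2, Ctl MSC 3, MSC-TPr 2 or MSC-TPr 3. Members at an unadjusted p under 0.05 numbered 5, and 3 without a filter, 28 over libraries 2 and 3, 1 with the replicate block, 13 with the covariate, and 3 to 10 with each library left out. The members' median log2 fold change of -0.009 became -0.192 over libraries 2 and 3, and ran from -0.148 (without MSC-TPr 1) to 0.059 with each library left out. Members without overlap numbered 12, 46 over libraries 2 and 3, where 2 against 2 libraries overlap less often, and 14 to 28 with each library left out. Without Ctl MSC 1 there were 28 and without MSC-TPr 1 there were 23.

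Among the 35 genes named by rule, 13 passed the threshold over libraries 2 and 3, 4 with the covariate and 3 with DESeq2, and 0 in every other setting run. In values that did not pass it, the sign turned for Btrc (-0.10 over libraries 2 and 3, and -0.072 to 0.143 with each library left out), Fbxl5 (0.003 without a filter, 0.08 with the covariate, 0.003 with DESeq2, and -0.10 to 0.116), Fbxo44 (-0.269 over libraries 2 and 3, and -0.139 to 0.435), Fbxw7 (-0.33, and -0.124 to 0.233) and Skp2 (-0.239 with the covariate, and -0.196 to 0.563). The cause was not tested. The replicate block changed no call of a named gene.

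The dispersion was 0.124 over 6 libraries and 0.0168 over libraries 2 and 3. Ctl MSC 2 and Ctl MSC 3 were the closest pair of all, with a chi-square per gene of 4.761. MSC-TPr 2 and 3 lay further apart, but nearer than any pair across the labels (65.09 or more). Whether Ctl MSC 2 and 3 came from separate cultures is not known. If they did not, the adjusted p-values over libraries 2 and 3 are too low. Members with few reads (Fbxl22, Fbxo2, Fbxo27, Fbxo48) carry wide counting error.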
